A study of Mus musculus with 155 samples.

Results

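The early response of mouse embryonic stem cells (ESCs) to induced H3.3K27L was measured by RNA-seq in 8 libraries, chosen by line and time from the 155 samples of the series. 4 libraries came from cells expressing H3.3 in which lysine 27 was changed to leucine (K27L) and 4 from cells expressing wild-type H3.3 (WT). Each line was sampled after 4 and 8 h of doxycycline (Dox, 1 uM), with 2 replicates at each time. Both lines were made in KH2 cells, an ESC line with a docking site for 1 inducible transgene, and both carried a single Dox-inducible copy of H3.3 fused to SNAP and HA tags beside their own H3.3 genes. The lines were drug-selected colonies, so that a difference between the lines can be a difference between clones, and the cells were grown on gelatin with LIF and 2 inhibitors (2i), a medium that holds ESCs in the naive state. No library of this comparison received the EZH2 inhibitor GSK, and no library without Dox was used here.

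H3.3 is the histone H3 variant that is placed into chromatin outside of DNA replication, at active genes, enhancers and silent repeats. Lysine 27 of its tail can be acetylated, which marks active regulatory DNA, or methylated by Polycomb repressive complex 2 (PRC2), whose catalytic subunit is EZH2 and which keeps developmental genes silent in ESCs. A methionine in place of this lysine (K27M) interferes with PRC2 itself, whereas K27L removes the lysine as a substrate on the mutant histone and is used as a comparison for K27M.

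The residue that was changed is encoded by codon 28 counted from the start codon, because the first methionine is removed from the protein. To show the site, the endogenous mouse genes are given here over 9 codons from the GENCODE M1 transcripts, with the codon of lysine 27 in capitals.
H3f3a: aaagccgctcgcAAGagtgcgccctct
H3f3b: aaggcggctcggAAAagcgcgccctct
The 2 genes differ by 5 bases over this stretch. The sequence of the transgene was not used here, and its RNA was not counted apart from the endogenous genes. Levels are given as CPM, the counts of a gene scaled to the size of the library. H3f3a was at 115 ± 8.48 CPM in K27L and 135 ± 38.3 in WT (SD, n = 4 each), and H3f3b was at 561 ± 34.6 and 611 ± 93.7. Neither difference passed the test (adjusted p = 0.598 and 0.686, edgeR quasi-likelihood test), so the counts of these genes gave no check of the line labels.

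The libraries held 6336754 to 21161392 counts. The ESC markers Pou5f1, Sox2, Nanog, Zfp42 and Esrrb summed to 3670 to 4150 CPM in K27L and 3460 to 3850 in WT. The sum of 6 fibroblast markers was 1.93 to 2.62 CPM in K27L and 2.16 to 3.26 in WT, with Postn at 0 in every library. The 6 trophoblast markers summed to 44.6 to 68.1 and 38.7 to 50.8 CPM, nearly all from Eomes. The 6 extraembryonic endoderm markers summed to 5.66 to 11.3 and 5.02 to 8.26 CPM, and the 4 neural markers to 56.0 to 99.7 and 85.3 to 141, nearly all from Tubb3. Of these markers, Zfp42 and Tubb3 lie on chromosome 8, and Gata4, the main part of the endoderm sum, and Sox7 on chromosome 14.

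The K27L libraries also differed from WT in whole chromosomes, and replicate 1 differed from replicate 2. Relative to the mean of WT, the median gene of chromosome 14 was 0.54 and 0.59 higher (log2) in the replicate 1 libraries of K27L at 4 and 8 h, and 0.03 and -0.01 from WT in the replicate 2 libraries. The median gene of chromosome 8 was at -0.49 and -0.48 in replicate 2, and at -0.05 and -0.07 in replicate 1. The study's methods report a potential duplication of chromosome 8 in all clones, found by karyotyping, and leave this chromosome out. The values here are relative to WT and do not give the copy number of either line. Genes placed on chromosome Y held 23 to 283 counts in K27L and 2191 to 4305 in WT. Genes of these 3 chromosomes were therefore set aside before scaling and testing, and they took up 6.94% to 9.95% of the counts of a library. The rest of the genome was not level either. On chromosome 6 (build NCBIM37), the 70 measured genes between positions 124908431 and 145769599 had a median of -0.67 and -0.61 in replicate 1 and -0.47 and -0.50 in replicate 2, against 0.00 to 0.07 in the WT libraries. On chromosome 17, the 70 genes between 38146592 and 53828658 had a median of 0.68 and 0.74 in replicate 2, and of 0.00 and 0.11 in replicate 1. These stretches were drawn after the values were seen and carry no test. The plot of chromosome medians shows the replicates of K27L apart on chromosomes 8, 14 and part of 17, and together below WT on part of 6.

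**Figure D1:**
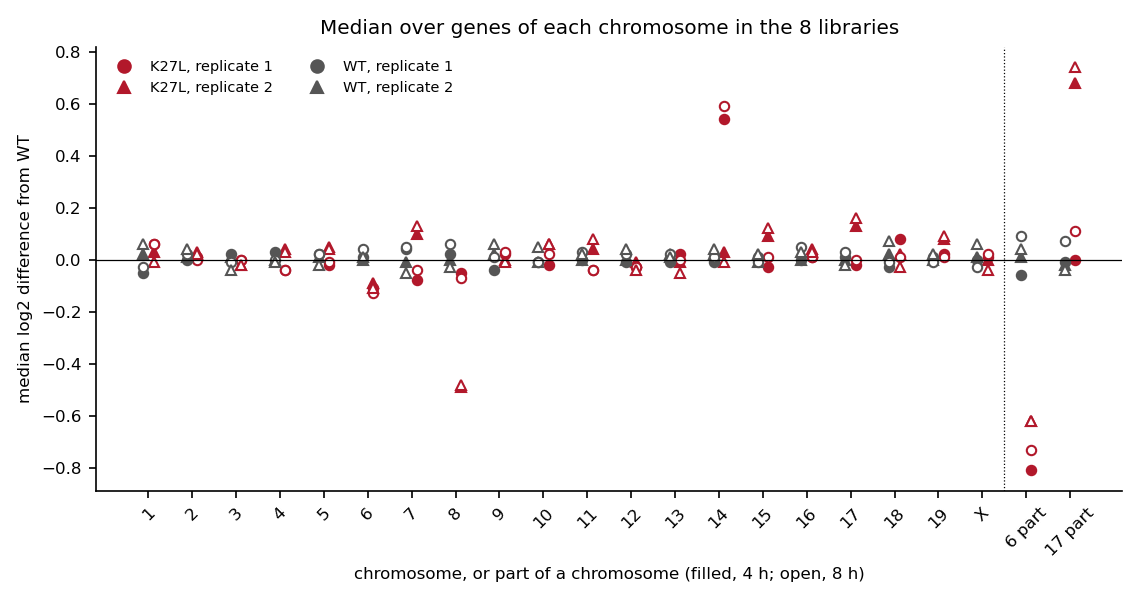
Median log2 difference from WT (y axis) over the genes of each chromosome (x axis) in the 8 libraries, with 1 symbol per library; each WT library is set against the other WT libraries. "6 part" is the 40 genes from 128312985 to 143157062 of chromosome 6 and "17 part" the 70 genes from 38146592 to 53828658 of chromosome 17; chromosome Y is left out, and all 4 K27L libraries lie between -0.81 and -0.62 in the part of chromosome 6.

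Of 12808 genes tested, 52 differed between K27L and WT by more than 2-fold at an adjusted p below 0.05, which is 0.406% of the genes. 6 genes were higher in K27L (0.0468%) and 46 were lower (0.359%). The genes with the lowest p on the lower side were Gask1b, a Golgi-associated kinase, the homeobox gene Hoxd8 and the imprinted gene Peg3, and on the higher side Gli1, a transcription factor and target of Hedgehog signalling, and Cavin1, a coat protein of caveolae. The 4 K27L libraries did not overlap the 4 WT libraries for any of the 52. Over all genes tested, 1353 (10.6%) had no overlap and 1880 (14.7%) had an unadjusted p below 0.05. The called genes were of low level, with a median WT mean of 10.8 CPM against 21.9 over all genes tested. 17 of the 46 lower genes had a WT mean below 5 CPM.

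**Figure D2:**
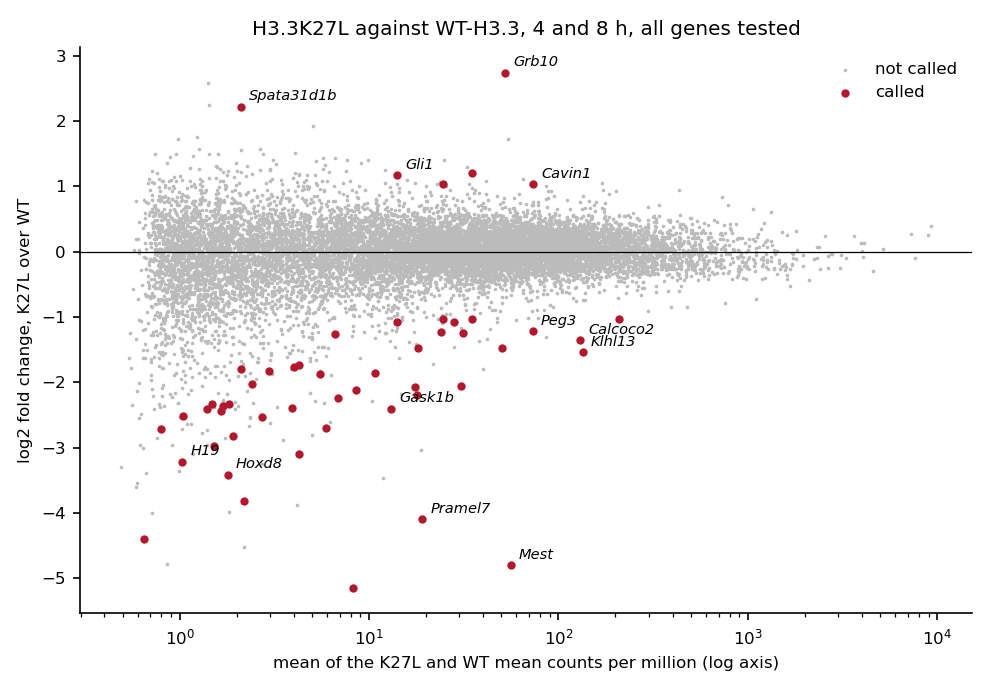
Log2 fold change of K27L over WT at 4 and 8 h (y axis) against the level of the gene, as the mean of the K27L and WT means in CPM (x axis, log scale), for the 12808 genes tested. Red points are the 52 called genes; 46 lie below 0 and 6 above.

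The 4 libraries of a line were 2 replicates at 2 times. Their replicate differences at 4 and 8 h went together, with a correlation of 0.715 in K27L and 0.542 in WT. The fit took the 4 libraries as independent, and its SEs and p values do not allow for this. The number of calls rested on single libraries. It was 0 without either 4 h library of K27L or without the 8 h replicate 1 library of K27L, 16 without its 8 h replicate 2 library, 1 and 2 without WT 4 h replicate 1 and 2, 3 without WT 8 h replicate 1, and 200 without WT 8 h replicate 2. All 52 genes kept their direction in each of these fits, as genes without overlap between the lines must. With the replicate 1 libraries of K27L alone against the 4 WT libraries, 4 genes were called, 2 of them among the 52, and with the replicate 2 libraries alone 179, of which 28 were among the 52. Replicates of WT differed as well. Over the log CPM of all genes tested, K27L 8 h replicate 1 correlated at 0.988 with WT 8 h replicate 2. Its correlation with K27L 8 h replicate 2 was 0.97, and that between the 8 h WT replicates was 0.962. A split by replicate was thus not particular to K27L. Whether the replicate libraries were prepared with the same kit is not given in the sources used here.

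12 of the 52 calls were on chromosome 6, 1.83% of its 655 tested genes, against 0.406% of all genes tested. At least 6 of these lay in the lowered stretches of that chromosome. Among them were the RNA helicase gene Ddx47, the Bcl2 family gene Bcl2l14, the haem-binding protein gene Hebp1, the tubulin gene Tuba3a and the protease inhibitor gene Pzp. The log2 fold changes of these named genes were between -2.19 for Tuba3a and -1.03 for Ddx47, where the stretch as a whole was at -0.67 to -0.47. The part of this stretch in their fold changes was not tested. Genes of chromosome 6 without a position in this build, some of them called, could not be assigned to a stretch. With the stretches on chromosomes 6 and 17 set aside, such genes stayed in. There, 45 genes were called, 45 of them among the 46 that were still tested. Chromosome 11 held 9 calls among 1134 tested genes (0.794%), and the stretch on chromosome 17 held 0 of 85 tested genes.

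Imprinted genes were called in 5 of 42 tested cases, 1 higher and 4 lower, against 0.406% of all genes tested. In these genes, the copy from 1 parent is silenced, in most cases through DNA methylation set in the germline. The 42 genes had a median log2 fold change of -0.09, against 0.01 over all genes tested. Grb10, which encodes an adaptor that dampens insulin and growth factor signalling, was at 141, 47.5, 134 and 42.9 CPM in K27L (in the order 4 h replicates 1 and 2, 8 h replicates 1 and 2) and at 11.1, 13.9, 13 and 16.5 CPM in WT. All K27L libraries were higher than all WT libraries, and replicate 1 of K27L was well above replicate 2 at both times. The log2 fold change was 2.74 ± 0.44 (SE, adjusted p = 0.0408). Mest, which is expressed from the paternal copy and encodes a hydrolase-like protein, was at 119, 102, 101 and 112 CPM in WT and at 6.63, 0.275, 7.93 and 0.507 CPM in K27L. The gene was thus low in every K27L library and nearest to 0 in the replicate 2 libraries (log2 fold change -4.79 ± 0.75, adjusted p = 0.0408).

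Peg3, a paternally expressed zinc finger gene, was at 103, 91.9, 91.2 and 123 CPM in WT and at 43.8, 44.2, 42.5 and 46.3 CPM in K27L. Here the 4 K27L libraries lay close together, all below WT (log2 fold change -1.21 ± 0.13, adjusted p = 0.0206). Mcts2, a paternally expressed retrogene in an intron of H13, behaved in the same way, with 38.4, 39.5, 40.7 and 33.8 CPM in WT and 17.6, 20, 18.4 and 16.5 CPM in K27L (-1.07 ± 0.13, adjusted p = 0.0217). H19, the maternally expressed long noncoding RNA, was at a low level in both lines. It was at 2.05, 2.01, 1.76 and 1.6 CPM in WT and at 0.349, 0.138, 0.210 and 0.0845 CPM in K27L, which rests on 8 counts in all K27L libraries together (-3.21 ± 0.38, adjusted p = 0.0217). H19 and Peg3 lie on chromosome 7, Mcts2 on chromosome 2, Mest on chromosome 6 outside the lowered stretches and Grb10 on chromosome 11. Of the members that were not called, Cd81 was at 0.57 ± 0.10 (adjusted p = 0.0531), Phlda2 at 1.36 ± 0.28 (adjusted p = 0.0754) and Dlk1 at -2.72 ± 0.58 (adjusted p = 0.0822). 22 of the 42 had an unadjusted p below 0.05, against 14.7% of all genes tested, and 15 did not overlap between lines, against 10.6%.

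Parental marks in DNA methylation are carried by CG dinucleotides, and the start regions of these genes are shown for their CG content. The RefSeq table (GRCm38.p6) held windows for Peg3, Mest, Mcts2 and Grb10. Each is shown from 200 bases before to 30 bases after a start, on the strand of the gene, with every CG in capitals. Both strands hold the same CG count.
Peg3, chr7:6730390-6730619, minus strand: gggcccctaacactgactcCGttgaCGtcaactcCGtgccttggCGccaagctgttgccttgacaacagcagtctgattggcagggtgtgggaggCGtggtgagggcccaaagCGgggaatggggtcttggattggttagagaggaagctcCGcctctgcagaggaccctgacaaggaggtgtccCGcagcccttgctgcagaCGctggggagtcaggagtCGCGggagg
Mest, chr6:30737850-30738079, plus strand: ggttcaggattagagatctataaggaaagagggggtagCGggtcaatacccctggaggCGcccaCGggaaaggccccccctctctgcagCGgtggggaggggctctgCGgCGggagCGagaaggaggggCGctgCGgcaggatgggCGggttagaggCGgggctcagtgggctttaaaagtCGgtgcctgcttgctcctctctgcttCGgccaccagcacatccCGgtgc
Mcts2, chr2:152686948-152687177, plus strand: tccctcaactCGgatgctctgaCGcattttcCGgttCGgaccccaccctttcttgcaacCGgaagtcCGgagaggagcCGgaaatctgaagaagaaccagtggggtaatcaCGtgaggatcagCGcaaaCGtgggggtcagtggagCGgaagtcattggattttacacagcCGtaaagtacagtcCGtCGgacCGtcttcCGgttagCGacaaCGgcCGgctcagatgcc
Grb10, chr11:12037391-12037620, minus strand: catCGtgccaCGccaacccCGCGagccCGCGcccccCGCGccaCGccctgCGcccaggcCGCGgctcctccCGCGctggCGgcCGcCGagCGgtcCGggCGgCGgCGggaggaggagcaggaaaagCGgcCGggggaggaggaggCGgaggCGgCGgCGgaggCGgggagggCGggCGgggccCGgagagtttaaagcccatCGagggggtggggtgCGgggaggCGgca
The windows held 11 CG for Peg3, 14 for Mest, 19 for Mcts2 and 35 for this start of Grb10. A second start of Grb10 held 8. Of the 32851 windows of this length in the table, 91.7% held a CG and the median was 6. At least as many CG as Peg3 were in 36.4% of windows, as Mest in 30.4%, as Mcts2 in 20.6% and as the first start of Grb10 in 2.40%. For the second start of Grb10, whose sequence is not shown, this share was 43.5%. Methylation of these regions was not part of the comparison.

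**Figure D3:**
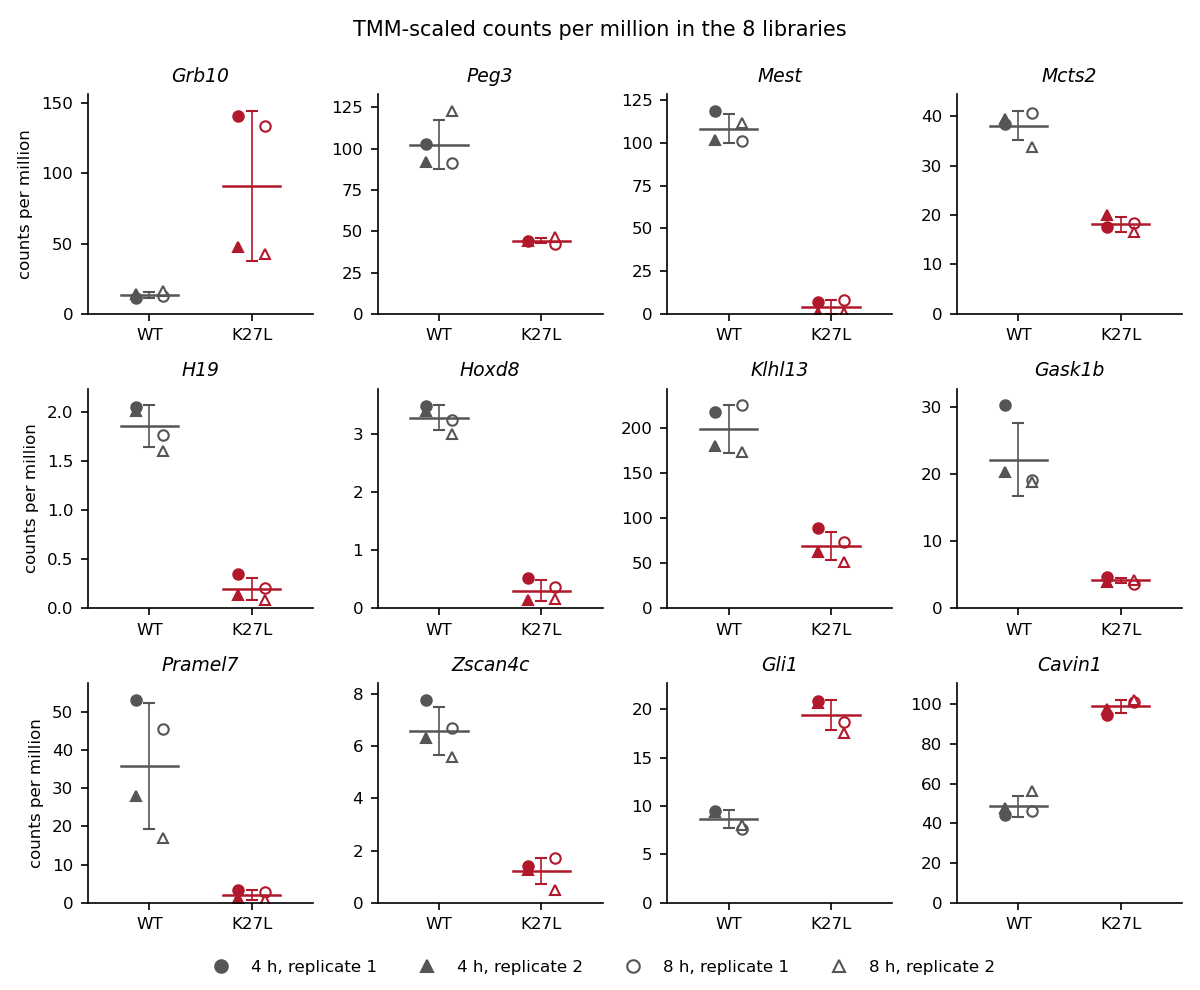
TMM-scaled CPM (y axis, from 0) of 12 genes in the 4 WT and 4 K27L libraries. Filled symbols are 4 h and open symbols 8 h, circles replicate 1 and triangles replicate 2; the horizontal line and bar give the mean and SD of the 4 libraries, and the lines do not overlap for any of the 12 genes.

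Genes of the two-cell-like state, which a small share of ESCs enters and in which transcripts of the early embryo are made, had a log2 fold change below 0 in 11 of 11 tested cases. Their median log2 fold change was -2.16, against 0.01 over all genes, and 9 of the 11 did not overlap between lines, against 10.6% of all genes. 1 of them was called, against 0.406% of all genes. Zscan4c, a zinc finger gene of this state, was at 7.79, 6.33, 6.69 and 5.59 CPM in WT and at 1.40, 1.24, 1.73 and 0.507 CPM in K27L. The K27L libraries were all below the WT libraries (-2.39 ± 0.33, adjusted p = 0.0310). The members next in p were Zscan4d (-2.32 ± 0.42, adjusted p = 0.0593), Gm8300 (-2.60 ± 0.51, adjusted p = 0.0684) and Tmem92 (-2.54 ± 0.56, adjusted p = 0.0884). The median was -1.47 with the replicate 1 libraries of K27L alone, where none of the 11 was called, and -3.60 with the replicate 2 libraries alone, where 7 were. Zscan4 and Usp17l genes have near-identical copies, so that reads may have been divided among them, and 15 of the 24 listed genes were matched to the table. In bulk RNA, fewer cells in this state and less RNA per cell cannot be told apart. Zscan4c also had a log2 fold change of -1.12 in K27M over WT (adjusted p = 0.962), a comparison that uses the same WT libraries. All members with a value in that comparison were below 0, from -1.41 to -0.69, with Zscan4d at -1.11, Gm8300 at -1.05 and Tmem92 at -1.04. No gene was called there. The lower level of this list was thus not particular to K27L.

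Germline genes that are silenced in other cells had a median log2 fold change of -0.58 over 21 tested members, 18 below 0 and 3 above. Tuba3a, a testis alpha-tubulin, was the 1 member called (4.76%), against 0.406% of all genes tested. It was at 36.1, 27.2, 40.2 and 13.9 CPM in WT and at 6.63, 5.92, 5.94 and 7.01 CPM in K27L (-2.19 ± 0.32, adjusted p = 0.0349), and it lies within the lowered stretch of chromosome 6. The lowest WT value was that of the 8 h replicate 2 library, and still lay above each K27L library. Rpl10l (-1.33 ± 0.24, adjusted p = 0.0593), the meiotic cohesin gene Smc1b (-1.85 ± 0.35, adjusted p = 0.0652) and the germ cell RNA-binding protein gene Dazl (-1.23 ± 0.26, adjusted p = 0.0818) were not called. The preimplantation gene Pramel7, which belongs to the Prame family, was called outside the lists. It was at 53.2, 27.9, 45.5 and 17 CPM in WT and at 3.32, 1.24, 2.84 and 0.845 CPM in K27L. WT varied by replicate, yet all K27L libraries were lower (-4.09 ± 0.50, adjusted p = 0.0217). Another member of that family, Pramel12, was higher, at 31.4, 34.7, 32.8 and 32.8 CPM in K27L and 15.4, 16, 13.6 and 19 CPM in WT (1.04 ± 0.14, adjusted p = 0.0293). Pramel24 was also called and was lower, at a mean of 0.442 CPM in K27L and 2.35 CPM in WT (-2.40 ± 0.37, adjusted p = 0.0364). The Prame family has close copies, and the values of single members are uncertain to that extent.

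Developmental transcription factor genes bound by PRC2 in ESCs were called in 1 of 40 tested cases, or 2.50%, against 0.406% of all genes tested, and 108 of the 110 listed genes were matched. The median log2 fold change of the 40 was -0.27, with 15 above 0 and 25 below. Hoxd8, a homeobox gene of the HoxD cluster, was at 3.49, 3.40, 3.25 and 3 CPM in WT and at 0.524, 0.138, 0.368 and 0.169 CPM in K27L. The WT libraries were close to each other and all K27L libraries were near 0, on 13 counts together (-3.41 ± 0.36, adjusted p = 0.0206). Other members of low p were Olig2, a neural factor, which passed the adjusted p but stayed below the 2-fold limit (0.82 ± 0.13, adjusted p = 0.0364), and Gata2. Gata2, a blood and endothelial factor, was at 6.11, 7.02, 9.19 and 9.80 CPM in K27L and at 3.28, 4.40, 2.60 and 3.13 CPM in WT. The lines did not overlap, but the gene was not called (1.26 ± 0.25, adjusted p = 0.0684). The list median was 0.00 with the replicate 1 libraries of K27L alone and -0.81 with the replicate 2 libraries alone, where 6 members were called.

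The genes of the PRC2 complex itself were called in 0 of 13 cases (edgeR), of which 3 had an unadjusted p below 0.05 (14.7% over all genes), and the median was 0.06. The methyltransferase gene Ezh2 was at 234 ± 17.8 CPM in K27L and 282 ± 46.4 in WT (-0.27 ± 0.14, adjusted p = 0.418). Suz12, a scaffold subunit, was at 483 ± 96.3 and 398 ± 81.4 CPM (0.28 ± 0.19, adjusted p = 0.530). Eed, the subunit that binds methylated lysine 27, was at 370 ± 39.5 and 355 ± 40.5 CPM (0.06 ± 0.12, adjusted p = 0.846). For each of these genes, the libraries of the lines overlapped. The accessory subunit gene Aebp2, on chromosome 6 in the lowered stretch, had the lowest p of the list (-0.52 ± 0.15, adjusted p = 0.147). The 21 PRC1 genes (median 0.06, 5 with an unadjusted p below 0.05) also held 0 calls. So did the 14 genes of H3.3 and its chaperones (0.05, with 0). The 7 genes of lysine 27 demethylases, acetyltransferases and deacetylases (0.30, with 1) and the 13 genes of DNA methylation and its removal (0.01, with 2) held 0 calls as well.

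Naive pluripotency genes held 0 calls among 13 (edgeR), with 4 at an unadjusted p below 0.05 and a median log2 fold change of 0.29. Klf4 was at 569 ± 37.6 CPM in K27L and 295 ± 86.0 in WT and did not overlap (0.95 ± 0.19, adjusted p = 0.0755). Esrrb was at 921 ± 67.3 and 683 ± 140 CPM (0.43 ± 0.16, adjusted p = 0.266) and Gbx2 at 30.7 ± 13 and 17 ± 3.27 CPM (0.86 ± 0.31, adjusted p = 0.248). Dppa3, on chromosome 6, also had an unadjusted p below 0.05 but was lower, at 7.18 ± 4.15 and 17.2 ± 6.91 CPM (-1.25 ± 0.47, adjusted p = 0.279). Nanog was at 1170 ± 136 CPM in K27L and 1400 ± 159 in WT (-0.26 ± 0.13, adjusted p = 0.405). This gene lies on chromosome 6 in a stretch of 45 genes, between positions 117850358 and 124764314, whose median was -0.27 to -0.28 in replicate 1 and -0.46 to -0.43 in replicate 2 of K27L. Pou5f1 was at 759 ± 80.3 and 775 ± 139 CPM (-0.03 ± 0.15, adjusted p = 0.944), and Sox2 at 532 ± 14.1 and 402 ± 39.4 CPM without overlap between lines (0.40 ± 0.11, adjusted p = 0.123). The 15 general and primed pluripotency genes held 0 calls, with 4 at an unadjusted p below 0.05 and a median of -0.07.

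Targets of Wnt signalling, which the 2i medium activates by inhibiting GSK3, had a median log2 fold change of 0.72 over 12 tested genes, 11 above 0 and 1 below. 0 were called (edgeR), and 7 had an unadjusted p below 0.05, against 14.7% of all genes tested. Notum, a secreted Wnt inhibitor, was at 53.7 ± 4.15 CPM in K27L and 29.2 ± 1.79 in WT, and passed the adjusted p below the 2-fold limit (0.88 ± 0.12, adjusted p = 0.0293). Cdx1 (0.73 ± 0.15, adjusted p = 0.0783) and Axin2, a feedback inhibitor (0.71 ± 0.15, adjusted p = 0.0802), did not pass. The median was 0.41 with the replicate 1 libraries of K27L alone and 0.81 with replicate 2 alone.

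Among the trophoblast genes 1 of 13 was called and among those of extraembryonic endoderm 1 of 13, both lower. Over all genes tested, the called share was 0.406%. Ppp2r2c, which encodes a regulatory subunit of phosphatase PP2A, was at 54.3, 46.2, 57.4 and 39.9 CPM in WT and at 17.5, 7.98, 14.9 and 7.18 CPM in K27L (-2.06 ± 0.30, adjusted p = 0.0339). Dab2, an endocytic adaptor, was at 3.90, 3.55, 2.51 and 2.33 CPM in WT and at 0.698, 0.413, 0.578 and 0.591 CPM in K27L (-2.33 ± 0.29, adjusted p = 0.0217). Both genes were lower in each K27L library than in any of WT. The medians of these lists were 0.00 and -0.17. With the replicate 1 libraries of K27L alone they were 0.01 and -0.01, and with the replicate 2 libraries alone -0.46 and -0.28. The remaining lists held 0 calls (edgeR). Their members with an unadjusted p below 0.05, a share that was 14.7% over all genes, are given here after the median. The lists were neural (median 0.08, 1 of 11), fibroblast and matrix (-0.41, 4 of 11), HIF target (-0.20, 5 of 22), immediate early (0.16, 4 of 23), Nodal and BMP target (-0.01, 4 of 19), p53 target (0.13, 4 of 23), unfolded protein and stress response (-0.19, 3 of 24), cholesterol synthesis (-0.11, 0 of 20), DNA replication (-0.11, 2 of 39) and oxidative phosphorylation genes (-0.19, 1 of 50). Replication-dependent histone genes had a median of 0.24 (1 of 19), but of -0.78 with the replicate 1 libraries of K27L alone and 0.89 with the replicate 2 libraries alone. In the same order, the medians were -0.40 and 0.00 for oxidative phosphorylation, 0.11 and -0.29 for cholesterol synthesis and 0.19 and -0.14 for Nodal and BMP targets. The medians of these lists thus differed between the K27L replicates, each set against the same WT libraries, whose replicates differed as well.

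**Figure D4:**
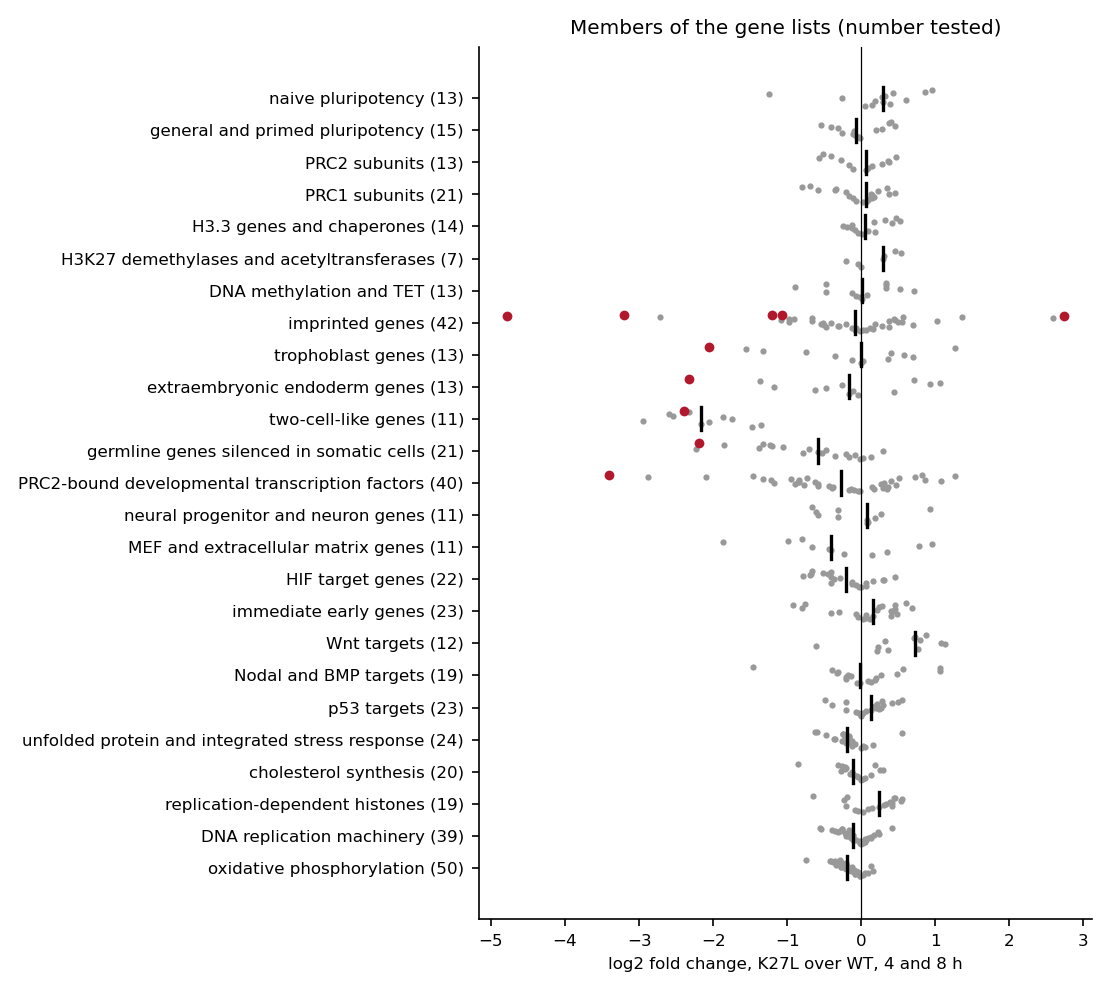
Log2 fold change of K27L over WT at 4 and 8 h (x axis) for the tested members of 25 gene lists (y axis, number tested in parentheses). Grey points are genes not called, red points called genes, and the vertical bar is the median of the list; the two-cell-like genes all lie below 0, and the imprinted genes extend from -4.79 to 2.74.

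The other genes that led the comparison came from several functions. Gask1b was at 30.3 CPM in the 4 h replicate 1 library of WT and at 18.9 to 20.3 CPM in its other libraries, and at 4.71, 3.99, 3.68 and 4.22 CPM in K27L, and had the lowest adjusted p (-2.40 ± 0.19, adjusted p = 0.00689). Klhl13, an X-linked adaptor of a ubiquitin ligase, was at 218, 180, 225 and 173 CPM in WT and at 89.0, 62.5, 73.4 and 51.8 CPM in K27L (-1.53 ± 0.18, adjusted p = 0.0217). In both genes the K27L libraries were all below WT. Nnmt, which consumes the methyl donor S-adenosylmethionine to methylate nicotinamide, was at 6.36, 4.24, 4.74 and 3.33 CPM in WT and at 1.05, 0.551, 0.630 and 0.929 CPM in K27L (-2.53 ± 0.31, adjusted p = 0.0217). The membrane glycoprotein gene Pdpn (-1.25 ± 0.14, adjusted p = 0.0206), the focal adhesion gene Tes (-1.47 ± 0.18, adjusted p = 0.0217) and the autophagy receptor gene Calcoco2 (-1.35 ± 0.17, adjusted p = 0.0286) were lower as well. At a mean of 187 CPM in WT, Calcoco2 was among the more abundant genes called.

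On the higher side, Gli1 was at 20.8, 20.6, 18.7 and 17.5 CPM in K27L and at 9.44, 9.41, 7.62 and 8.06 CPM in WT (1.17 ± 0.13, adjusted p = 0.0206). Cavin1 was at 94.6, 97.7, 101 and 102 CPM in K27L and at 44.1, 47.9, 46.1 and 56.0 CPM in WT (1.03 ± 0.12, adjusted p = 0.0206). For both, replicates of a line differed little beside the gap between the lines. Pitpnc1, a phosphatidylinositol transfer protein gene, was at 57.4, 37.6, 56.8 and 44.1 CPM in K27L and at 18.3, 18.8, 21.2 and 27 CPM in WT (1.21 ± 0.18, adjusted p = 0.0364). Spata31d1b, of a testis-expressed family with close copies, was at 3.14, 2.75, 5.04 and 2.96 CPM in K27L and at 0.410, 0.617, 0.557 and 1.33 CPM in WT (2.22 ± 0.35, adjusted p = 0.0408).

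Whether the difference grew between 4 and 8 h was tested directly. No gene among 13260 was called for a change of the difference with time (edgeR), 31 (0.234%) had an unadjusted p below 0.05, and DESeq2 called 0 with 7. That share is smaller than a well-scaled test would give with no change at all. The fit did not pair the 4 and 8 h libraries of a replicate. It could hardly find a change, and the lack of calls does not show that the difference stayed the same. The direction of the 52 genes at each time follows from their lack of overlap, and their median log2 fold change was -2.03 at 4 h and -1.96 at 8 h. Neither time alone gave a call, at 2 libraries a line. The difference of Gata2 was 0.77 ± 0.30 at 4 h and 1.72 ± 0.29 at 8 h, a change of 0.95 ± 0.41 that did not pass (adjusted p = 1).

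After 24 and 72 h of Dox, 11 of 13260 genes were called (0.0830%), 2 higher (0.0151%) and 9 lower (0.0679%). These 8 libraries are others than the early ones, although from the same lines. The 72 h replicate 2 library of K27L was very shallow. Pdpn, for example, was at 0 CPM there and at 27.2, 28.3 and 40.4 CPM in the other late K27L libraries. The values of K27L at 72 h thus rest mainly on replicate 1. All 52 early genes had the same sign late, with a median of -1.44, and 7 were called again, 7 of 52 early and 7 of 11 late calls. 0 genes were called for a change of the difference from early to late (edgeR, 160 or 1.21% with an unadjusted p below 0.05). DESeq2 also called 0, with 20. The share of 1.21% is again smaller than with no change at all, and times of a replicate were not paired. The lack of calls thus does not show that the difference stayed the same. Grb10 was at 3.43 ± 0.46 late (adjusted p = 0.0107), Peg3 at -1.42 ± 0.17 (adjusted p = 0.00481), Klhl13 at -1.72 ± 0.19 (adjusted p = 0.00361) and Hoxd8 at -2.93 ± 0.44 (adjusted p = 0.0195). Gata2 was called late but not early, at 2.52 ± 0.23 (adjusted p = 0.000497), but its change from early to late, 1.28 ± 0.31, did not pass (adjusted p = 1). Without the 72 h replicate 1 library of K27L, 0 genes were called late, and leaving out 1 of the 16 libraries gave 0 to 19.

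**Figure D5:**
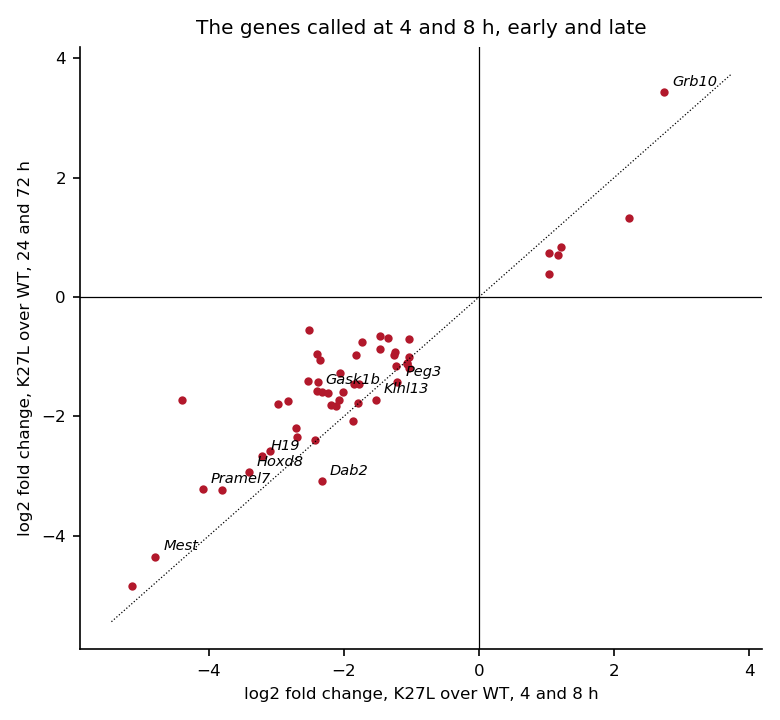
Log2 fold change of K27L over WT at 24 and 72 h (y axis) against that at 4 and 8 h (x axis) for the 52 genes called early. The dotted line marks equal values; all 52 points lie in the quadrants of equal sign.

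Against K27M at 4 and 8 h, 186 of 12989 genes were called (1.43%), 62 higher (0.477%) and 124 lower (0.955%) in K27L. K27M over WT gave 0 calls in the same model (edgeR), with 554 genes at an unadjusted p below 0.05. The comparisons share libraries, so their values are only set side by side. Mest was at -4.60 ± 0.65 in K27L over K27M (adjusted p = 0.00542) and at -0.17 ± 0.53 in K27M over WT. H19 was at -3.59 ± 0.37 (adjusted p = 0.00158) and 0.35 ± 0.27, and Grb10 at 2.22 ± 0.40 (adjusted p = 0.0177) and 0.52 ± 0.40. Cavin1 was at 1.03 ± 0.11 (adjusted p = 0.00240) and 0.00 ± 0.11. By contrast, Zscan4c did not pass against K27M (-1.25 ± 0.44, adjusted p = 0.161), nor did Dab2 (-1.63 ± 0.45, adjusted p = 0.0818). The genes of lowest p against K27M were, higher in K27L, Cavin1, the clotting cofactor gene Pros1 (2.04 ± 0.23, adjusted p = 0.00267) and the lysosomal gene Laptm5 (1.04 ± 0.13, adjusted p = 0.00347). Lower were H19, Nnmt (-2.59 ± 0.29, adjusted p = 0.00240) and Anxa2, a calcium-dependent membrane-binding protein gene (-1.71 ± 0.17, adjusted p = 0.00158). Against WT, Pros1 was not called (1.40 ± 0.25, adjusted p = 0.0564) and Laptm5 was below the 2-fold limit (0.86 ± 0.13, adjusted p = 0.0339).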

How the data were processed

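Counts per gene were deposited by the authors as 1 table for all 32 ESC libraries. The submitters' processing notes name STAR 2.7.1; the counting tool, its strand setting and its annotation are not given in the sources used here, and the study's methods name mm9. Libraries were single-end, prepared with a QuantSeq 3′ or a KAPA kit, and which library used which is not stated. Chromosomes and positions came from GENCODE M1 (NCBIM37), which placed 32589 of 55471 gene IDs; 22622 further genes were placed on a chromosome by their neighbours in the table, and 260 stayed without one. Genes of chromosomes 8, 14 and Y were set aside before scaling. Tests used edgeR 4.0.16 (R 4.3.3): filterByExpr, TMM scaling, the robust quasi-likelihood test with Dox time and line as terms, and Benjamini-Hochberg adjustment over all genes tested. The 4 libraries of a line were taken as independent, although the 4 and 8 h libraries of a replicate were not. A call needed an adjusted p below 0.05 and a fold above 2 or below 0.5. Changes with time were contrasts of the means of each line and time. DESeq2 1.42.0 was an alternative. CPM values are TMM-scaled, and the SE was taken from the fold change and its F value.

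Genes were named by a rule: called genes with a symbol and without overlap between lines, at most 12 per direction by p, every called member of the 25 lists, 11 fixed genes, up to 3 uncalled members per list and at most 3 genes per direction in the other comparisons. Outside this rule fall the genes of the lowered stretch of chromosome 6, Dppa3, Pramel24 and the change of Gata2 with time. These were picked on their values. The libraries, lists and tests were chosen with earlier results of these data known. No 2 libraries agreed within sampling noise. The study's methods describe the replicates as experiments done weeks apart, and no label ties the replicate numbers of the lines to a shared day. Alternatives were another scaling, another tool, other filters, other sets of chromosomes, 1 model of all 32 libraries, replicate blocks and leaving out libraries. Total counts of 6336754 to 21161392 per library set the precision, and counts below about 10 in a line leave a fold uncertain. The methylation, peak and differentiation files of the series were not used here. Genes that this rule names but the text does not are not reported here.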

Additional observations from a re-analysis of the deposited data

Results flagged for a closer look

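Among the genes named, 68 groups of 4 libraries were examined for a library far from the other 3, a test that flags about 1 group in 20 by chance. 2 were found. Gask1b was at 30.3 CPM in the 4 h replicate 1 library of WT, where the other WT libraries were at 18.9 to 20.3 CPM. Spata31d1b was at 5.04 CPM in the 8 h replicate 1 library of K27L, where the other K27L libraries were at 2.75 to 3.14 CPM.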

How the results depend on the processing

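All 52 early genes that could be tested kept their direction under every alternative run, which their lack of overlap between lines largely fixes. Their number was 52 with RLE factors, 73 with no chromosome set aside, 71 with chromosome 8 alone set aside and 64 without the fold limit. It was 283 with DESeq2, 499 without a filter, 22 with 10 counts required in every library (27 of the 52 tested), 302 in 1 model of all 32 libraries and 0 at 4 h or 8 h alone, and leaving out 1 library gave 0 to 200. With the replicate number as a block, 77 genes were called, 45 of them among the 52. Replicate differences of K27L and WT correlated at -0.376 (4 h) and -0.582 (8 h), so the numbers do not pair K27L with WT samples. Within a line they did tie the times together, as the replicate differences at 4 and 8 h correlated at 0.715 in K27L and 0.542 in WT. With the numbers crossed between lines, which was chosen after seeing the data, 462 genes were called. Also chosen after seeing the data, K27L replicate 1 alone gave 4, replicate 2 alone 179, and setting aside the stretches of chromosomes 6 and 17 gave 45. For 24 and 72 h (11 genes), DESeq2 gave 23, no filter 283, the replicate block 45 and leaving out 1 library 0 to 19. Against K27M (186), DESeq2 gave 383, no filter 597, the replicate block 275 and leaving out 1 library 72 to 241. The change from early to late gave 6 calls without a filter. Of the genes named by the rule, including the uncalled list members of lowest p, 3 turned sign, none of them called; other list members were not followed 1 by 1. Pou5f1 was at 0.02 without either K27L replicate 1 library, 0.01 and 0.09 without WT replicate 1 at 4 and 8 h, 0.04 at 8 h alone and 0.09 with K27L replicate 2 alone. Leaving out 1 library gave Pou5f1 -0.16 to 0.09. Eed was at -0.01 without K27L or WT 8 h replicate 2, -0.08 with K27L replicate 1 alone, and -0.01 to 0.12 without 1 library. H4c12, a histone gene, was at -0.07 without K27L 8 h replicate 2 and -0.58 with K27L replicate 1 alone, and at -0.07 to 0.79 without 1 library. The cause was not tested. Fewer libraries and fewer genes tested alter the counts by construction. Genes under about 1 CPM in K27L rest on few counts at this depth.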
